A study of Mus musculus with 16 samples.

Results

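The cluster of miR-290 to miR-295 on chromosome 7, here the miR-290 cluster, and the cluster of miR-302 and miR-367 on chromosome 3, here the miR-302 cluster, are the microRNA genes best known from pluripotent cells of the mouse. Accessible chromatin was described here around 7 of their genes, Mir294 and Mir295 of the first cluster and Mir302a, Mir302b, Mir302c, Mir302d and Mir367 of the second. A region of accessible chromatin was taken when its centre lay within 50 kb of one of these genes in GENCODE M21 (mm10). Of 81132 regions in the list, 20 met this rule, 13 at the miR-290 cluster and 7 at the miR-302 cluster. The other annotated hairpin genes of the miR-290 cluster, Mir290a, Mir290b, Mir291a, Mir291b, Mir292, Mir292b and Mir293, lie within or beside the same regions and are described with them.

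The study asked how natural variation in the amounts of SOX2 and OCT4 affects the differentiation of mouse ES cells. In one part, accessible chromatin of sorted populations was measured by ATAC-seq. In this method the Tn5 transposase cuts open DNA and tags the ends for sequencing. SBROS cells, a CGR8 line carrying a SNAP-tag on both SOX2 alleles and a HALO-tag on a single OCT4 allele, were grown with serum, LIF, CHIR99021 at 3 µM and PD184352 at 0.8 µM, the last pair being inhibitors of GSK3 and MEK. The line also carries the differentiation reporters of its parental line, SOX1-P2A-eGFP and BRA-P2A-mCherry. Cells in G1 were stained for both tags with dyes and sorted into 4 populations, which gave 12 libraries with 3 biological replicates per population. The authors called peaks in each library and merged them into a single list. SHOH cells were high for both proteins and SLOL cells low for both, whereas SHOL cells were high for SOX2 and low for OCT4, and SLOH cells the reverse. All populations came from the same knock-in line, in which the untagged OCT4 allele was not seen by the sort. By immunofluorescence, the paper found a good correlation of the tagged protein with total OCT4 in single cells. The list holds positions and no levels, scores or library names, so it does not give the depth behind a region, the populations were not compared, and a region can stem from one library or from several. Every value below therefore describes the merged list, and no value has a replicate error.

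MicroRNAs are cut from hairpin precursors by Drosha with Dgcr8 in the nucleus and by Dicer in the cytoplasm, and the mature strand guides an Argonaute protein to messenger RNAs that pair with its seed, the bases near its 5′ end. Both clusters are transcribed as long primary transcripts that carry several hairpins. Members of the shared seed family promote the rapid G1 to S transition of ES cells by repressing inhibitors of the cell cycle, and the miR-302 cluster is used to reprogram somatic cells.

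RefSeq (GRCm38.p6) gave 26 mature sequences for the 14 hairpin genes of both clusters, 13 of them from the 7 member genes. miR-292a-3p and miR-302a-3p were not used here, and the counts of seeds cover the 26 alone. The sequences are printed because the clusters share a seed although they lie on different chromosomes, and capitals mark the seed, bases 2 to 8. The seed AAGUGCU was common to 5 of the 26, 3 from the miR-290 cluster and 2 from the miR-302 cluster.
miR-291a-3p: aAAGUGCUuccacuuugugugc
miR-294-3p: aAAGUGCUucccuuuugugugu
miR-295-3p: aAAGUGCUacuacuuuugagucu
miR-302b-3p: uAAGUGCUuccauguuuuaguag
miR-302d-3p: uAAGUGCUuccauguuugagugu
The letters AAGUGC stood within the first 8 bases of 9 mature sequences in all, 6 from the miR-290 cluster and 3 from the miR-302 cluster. The remaining ones differed from the seed AAGUGCU at its last base or held the letters a base closer to the 5′ end. Their seeds are AAGUGCA in miR-291b-3p, AAGUGCC in miR-290a-3p, AGUGCUU in miR-302c-3p and AGUGCCC in miR-290b-3p. miR-290b-3p comes from the strand opposite to the other microRNAs of this group.
miR-291b-3p: aAAGUGCAuccauuuuguuugu
miR-290a-3p: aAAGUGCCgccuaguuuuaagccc
miR-302c-3p: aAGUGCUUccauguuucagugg
miR-290b-3p: aAGUGCCCccauaguuugagua

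On the 5p arms, CUUUAAC was shared by 3 sequences of the miR-302 cluster and CUCAAAC by 3 of the miR-290 cluster, namely miR-290a-5p, miR-292a-5p and miR-293-5p. The members' 5p arms and both arms of miR-367 are printed to show that these seeds differ between the clusters, and the miR-291 pair because its seed recurs among the motifs described further on. The 26 sequences had 16 different seeds.
miR-302b-5p: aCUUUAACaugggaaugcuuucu
miR-302c-5p: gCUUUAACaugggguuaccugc
miR-302d-5p: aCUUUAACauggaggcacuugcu
miR-302a-5p: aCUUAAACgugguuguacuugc
miR-294-5p: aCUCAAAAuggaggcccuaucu
miR-295-5p: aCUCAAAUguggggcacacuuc
miR-291a-5p: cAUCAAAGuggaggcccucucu
miR-291b-5p: gAUCAAAGuggaggcccucucc
miR-367-3p: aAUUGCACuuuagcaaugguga
miR-367-5p: aCUGUUGCuaacaugcaacuc

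Genomic stretches from 6 of the 20 regions are given next, on the plus strand of GRCm38.p6, because they hold the start of a hairpin cluster or matches to the STAT, T-box, ESRRB and SOX motifs described further on. In the first, from the widest region of both clusters, capitals mark the Mir290a hairpin at its 3′ end, and the bases before it lie upstream of the gene.
chr7:3218476-3218708: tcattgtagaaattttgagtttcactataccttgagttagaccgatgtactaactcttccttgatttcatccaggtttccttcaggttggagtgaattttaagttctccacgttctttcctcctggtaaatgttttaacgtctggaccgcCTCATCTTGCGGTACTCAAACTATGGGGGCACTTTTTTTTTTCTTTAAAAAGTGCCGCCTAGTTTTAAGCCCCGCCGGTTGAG
The next 3 stretches are intergenic and lie upstream of Mir290a. Capitals mark a pair of T-box sites followed by a STAT site in the first of them, a SOX site in the second and a STAT site in the third.
chr7:3201319-3201534: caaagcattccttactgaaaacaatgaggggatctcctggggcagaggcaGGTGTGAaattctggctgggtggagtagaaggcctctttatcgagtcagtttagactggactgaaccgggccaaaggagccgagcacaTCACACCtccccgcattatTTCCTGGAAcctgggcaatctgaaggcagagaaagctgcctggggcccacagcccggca
chr7:3206624-3206730: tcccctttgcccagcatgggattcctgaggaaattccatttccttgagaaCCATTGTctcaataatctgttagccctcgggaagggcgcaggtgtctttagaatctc
chr7:3194052-3194160: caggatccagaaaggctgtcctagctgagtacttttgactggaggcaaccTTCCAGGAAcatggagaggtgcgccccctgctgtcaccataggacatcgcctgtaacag
Beyond the hairpins, an intergenic region upstream of Nlrp12 held the single ESRRB site found at either cluster, marked in capitals.
chr7:3251852-3251956: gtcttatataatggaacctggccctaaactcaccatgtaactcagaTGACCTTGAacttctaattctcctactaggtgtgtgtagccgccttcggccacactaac
At the miR-302 cluster, the stretch lies in an intron of Larp7 and ends inside the first hairpin. Capitals mark a SOX site, a TATA box and the first 9 bases of the Mir302b hairpin.
chr3:127544945-127545236: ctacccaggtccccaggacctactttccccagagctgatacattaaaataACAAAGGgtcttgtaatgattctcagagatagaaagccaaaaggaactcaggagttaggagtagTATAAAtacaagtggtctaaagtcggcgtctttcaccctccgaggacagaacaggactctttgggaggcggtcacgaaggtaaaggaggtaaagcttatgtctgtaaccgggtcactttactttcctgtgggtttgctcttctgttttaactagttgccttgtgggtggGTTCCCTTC

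The 13 regions of the miR-290 cluster lay mostly upstream of the hairpins. Mir290b and Mir292b are annotated on the minus strand and the other hairpins of the cluster on the plus strand, and upstream here means towards lower coordinates. Upstream of the hairpins were 8 regions summing to 4007 bp, 2 regions of 1795 bp in sum touched the span of the hairpins, and 3 regions of 1271 bp in sum lay downstream. They covered 7073 bp, or 7.06% of the window of 100201 bp, compared with 1.50% of chromosome 7 and 1.33% of the genome without gaps. The density was 130 regions per Mb, against 34.0 on chromosome 7 and 30.6 in the genome. Coverage was thus 5.31 times and density 4.23 times the genome value. Widths ranged from 155 to 1502 bp with a median of 475 bp, and the gaps between neighbours from 115 to 16732 bp with a median of 4960 bp. The map of both clusters shows the regions on a common scale.

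**Figure D1:**
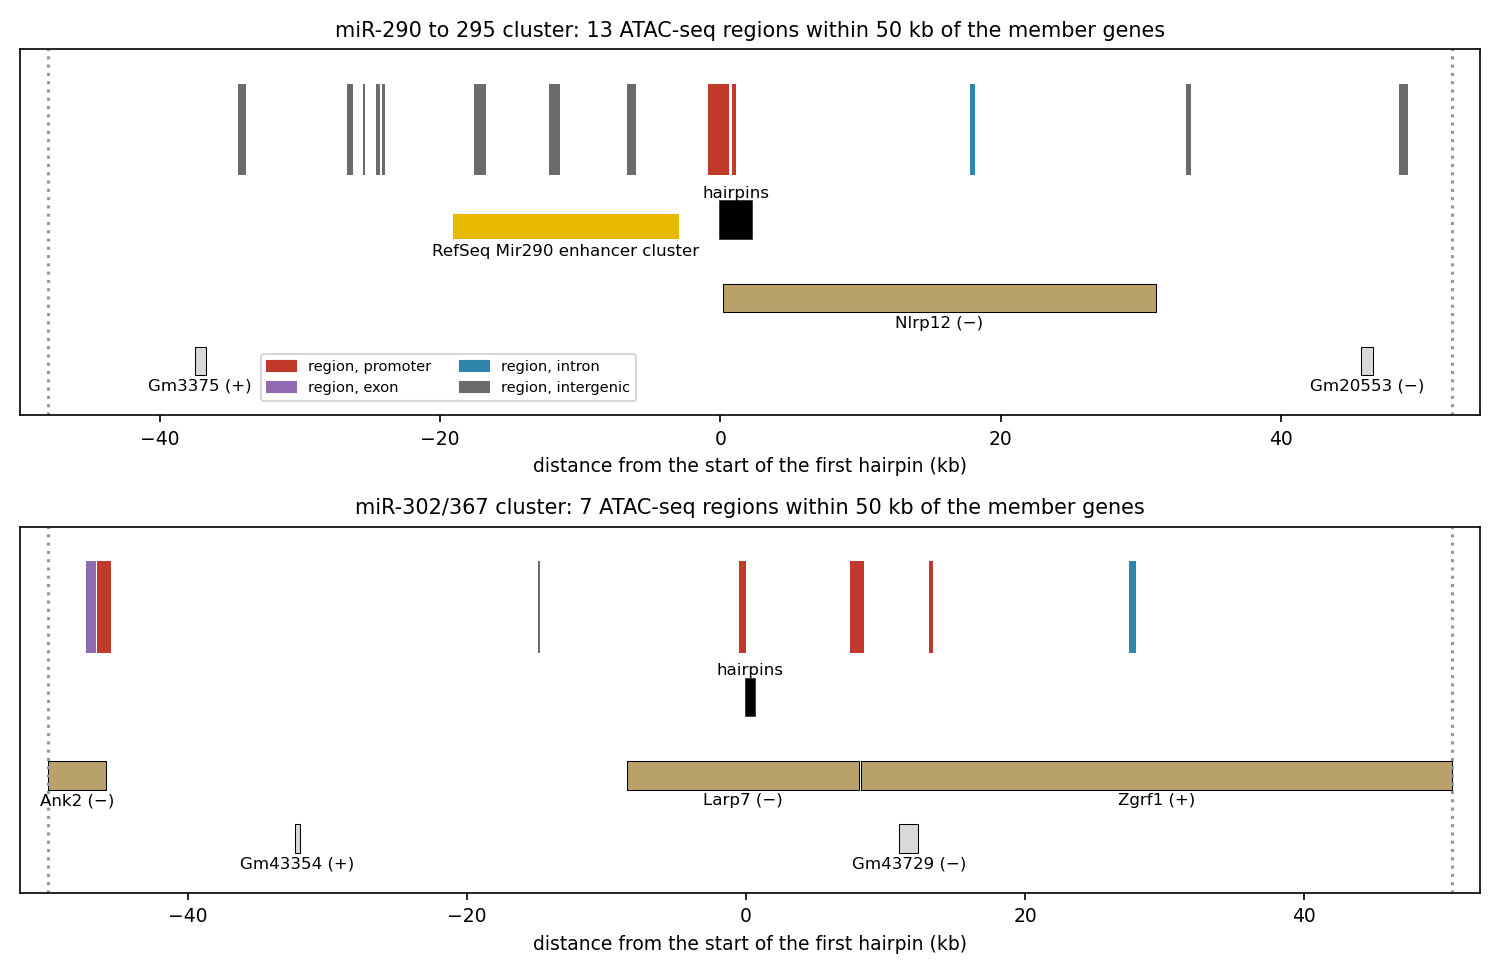
ATAC-seq regions (upper bars, coloured by class at the centre) and annotated genes within 50 kb of the member genes, plotted against the distance in kb from the start of Mir290a (upper panel) or Mir302b (lower panel), with dotted lines at the window ends and the strand of each gene in brackets. Of the 13 regions in the upper panel, 8 lie left of the hairpins, whereas the 7 regions of the lower panel lie 3 to the left, 1 at the hairpins and 3 to the right.

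The widest region of both clusters lay at the start of the miR-290 hairpins. It spanned chr7:3217708-3219209, 1502 bp, and its centre was at -167 bp, where positions are counted from the first base of Mir290a and negative values are upstream. Mir290a, Mir290b and Mir291a lay inside it from end to end, and 21 bp of Mir292 and 12 bp of Mir292b did too. A narrower region of 293 bp at chr7:3219450-3219742 held all of Mir291b. Both regions overlap the 3′ end of Nlrp12, which is on the minus strand. Of the 9 hairpin genes, which span 2216 bp, 6 had a base in a region and 4 of these were covered whole. Mir293, Mir294 and Mir295 were outside, at 601, 899 and 1031 bp from the nearest region. Neither of the members of this cluster, Mir294 and Mir295, was therefore overlapped, and the listed regions ended before the last hairpins. RefSeq starts a long noncoding RNA that spans the later hairpins, D7Ertd143e, 158 bp past the first base of Mir290a, and the wide region reached 426 bp past that start.

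**Figure D2:**
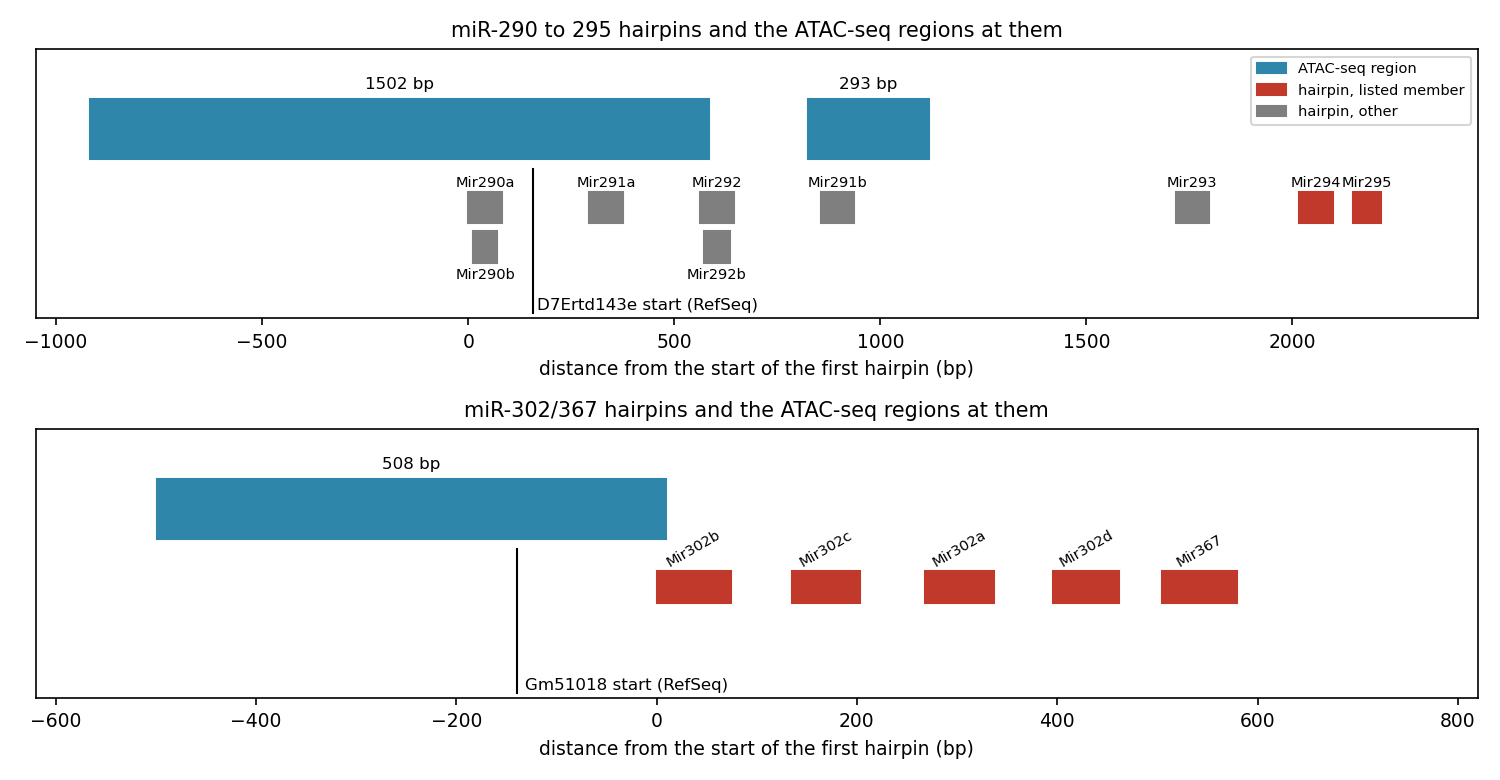
Hairpin genes (red, listed members; grey, other hairpins) and the ATAC-seq regions that touch them (blue, width printed above), plotted against the distance in bp from the first base of Mir290a (upper panel) or Mir302b (lower panel), with a vertical line at the RefSeq start of the long noncoding RNA. In the upper panel Mir294 and Mir295 lie beyond the regions, and in the lower panel the region ends 9 bp inside Mir302b.

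Upstream of the hairpins the regions were all intergenic. The most distant, chr7:3184213-3184740 (528 bp), was centred at -34149 bp, near the processed pseudogene Gm3375, and held a T-box site. A dense run of 4 regions followed between 3191947 and 3194682, in which 1157 of 2736 bp were covered and the gaps were 702, 762 and 115 bp. Within this run, KLF sites stood in the regions at -26442 and -24051 bp, a STAT site in the region at -24430 bp, and none of the motifs in the narrowest region of the cluster, at -25425 bp.

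Closer to the hairpins, the regions chr7:3201007-3201900 (894 bp), chr7:3206360-3207186 (827 bp) and chr7:3211976-3212576 (601 bp) were centred at -17172, -11853 and -6350 bp. All 3 lay within an interval of 15992 bp, chr7:3199611-3215602, that RefSeq annotates as a transcriptional cis-regulatory region, an enhancer cluster of Mir290. These regions accounted for 2322 bp of the interval. The first held a STAT and 2 T-box sites and the second a SOX and a T-box site, as printed above in part. In the third, of which 50.4% was repeat-masked sequence, none of the motifs was found.

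Downstream of the hairpins, 3 regions lay in or beyond Nlrp12, a gene on the minus strand that encodes a NOD-like receptor of myeloid cells. The first, chr7:3236475-3236770 (296 bp), was in a Nlrp12 intron and consisted of repeat-masked sequence over its whole length. Another, chr7:3251852-3252192 (341 bp), was centred at -2282 bp from the Nlrp12 start and held the ESRRB site printed above and a TATA box. Of its sequence, 54.3% was repeat-masked. The last, chr7:3267077-3267710 (634 bp), was intergenic, closest to the unprocessed pseudogene Gm20553, and held 3 TATA boxes. No region was centred in the promoter of Nlrp12. Nlrp12 was the only protein-coding gene among 12 annotated genes in the window, the others being 9 hairpin genes and the pseudogenes named.

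The 7 regions of the miR-302 cluster were fewer and lay mostly at protein-coding genes. Upstream of the hairpins were 3 regions with 1867 bp in sum, 1 region touched the hairpins, and 3 regions with 1831 bp in sum lay downstream. They covered 4206 bp, or 4.18% of a window of 100580 bp, against 1.25% of chromosome 3. The density was 69.6 regions per Mb, compared with 28.2 on chromosome 3. Relative to the genome, coverage was 3.14 times and density 2.27 times as high. Widths ranged from 165 to 1056 bp with a median of 508 bp, and gaps from 67 to 30583 bp with a median of 10731 bp.

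A single region touched the miR-302 hairpins. It spanned chr3:127544729-127545236 (508 bp), within an intron of Larp7 on the opposite strand, and was centred at -245 bp from the first base of Mir302b. Its end reached 9 bp into Mir302b, whereas Mir302c, Mir302a, Mir302d and Mir367 lay 127, 260, 388 and 497 bp beyond it. Thus 4 of the 5 hairpins, which span 580 bp, were outside. The RefSeq long noncoding RNA Gm51018, which contains the hairpins, starts within this region and has its first 148 bp there. The TATA box printed above lay 30 to 25 bp before this start and 169 to 164 bp before Mir302b, and the SOX site 94 to 88 bp before the start and 233 to 227 bp before Mir302b.

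Around this region were the promoters of the neighbouring genes. Larp7, which encodes a protein that binds the 7SK RNA and holds back the elongation factor P-TEFb, and Zgrf1, which encodes a helicase of DNA repair, start from a shared promoter in opposite directions. This promoter held the region chr3:127552658-127553713 (1056 bp), centred 11 bp past the closest of the 4 annotated Larp7 starts, with a CpG ratio of 0.858 (observed to expected) and a KLF site. Ank2 encodes ankyrin-B, an adaptor between membrane proteins and the spectrin skeleton. Its promoter held the region chr3:127498743-127499738 (996 bp), the most GC-rich of both clusters at 60.9%, with a TATA box and with a KLF and a T-box site that overlap. A neighbour at chr3:127497970-127498675 (706 bp) lay in an Ank2 exon and held 3 KLF sites.

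Of the remaining 3 regions, chr3:127530322-127530486 (165 bp) was intergenic at -14824 bp, had no repeat-masked base and held none of the motifs. In the promoter of Gm43729, an antisense gene within Zgrf1, chr3:127558356-127558643 (288 bp) was 88.9% repeat-masked. A Zgrf1 intron held chr3:127572685-127573171 (487 bp), with a TCF/LEF site. This window held 10 annotated genes.

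The limit of 50 kb fell into gaps between regions. At the miR-290 cluster, the outermost regions inside were 36164 bp upstream and 46553 bp downstream of the closest member, and the next region outside on the upstream side was at 51573 bp, in the promoter of AU018091. At the miR-302 cluster, the regions just inside were at 46905 and 27121 bp and those just outside at 81019 and 62457 bp.

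To place these counts, the same window was set around all 2202 microRNA genes of GENCODE M21. Each of the 7 member genes had a region within 50 kb, as did 1840 of the 2202 genes (83.6%), so this is a common property. The median was 4 regions per gene, with quartiles of 1 and 8 and a maximum of 27, while 362 genes had none. Mir294 and Mir295 had 13 regions each, and 92 genes had more, 49 as many and 2061 fewer, so that 6.40% of the genes had at least 13. Mir302a to Mir302d and Mir367 had 7 regions each, and 578 genes had more, 149 as many and 1475 fewer, so that 33.0% had at least 7. The miR-290 cluster thus stood in the upper tail of the distribution, whereas the miR-302 cluster was above the median and within the upper part of its bulk. A description per locus gave similar places, since 84 of 1847 loci of joined microRNA genes (4.55%) had at least the 14 regions counted around all miR-290 hairpins and 655 (35.5%) at least 7.

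**Figure D3:**
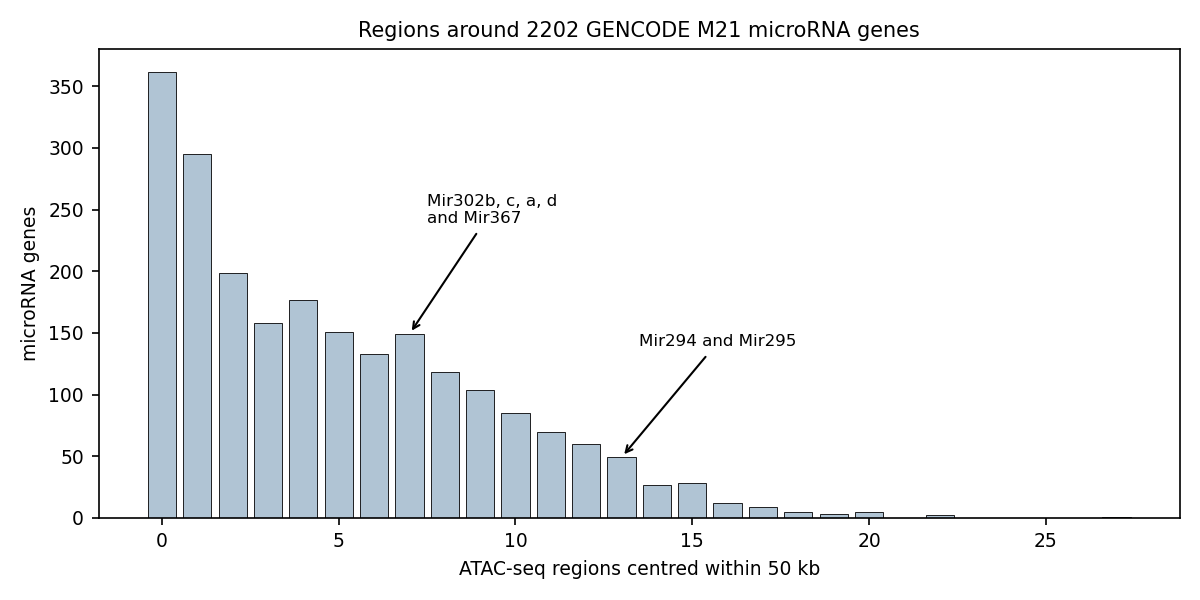
Number of microRNA genes (y axis) by the number of ATAC-seq regions centred within 50 kb of the gene (x axis), over 2202 genes, with arrows at the member genes. Mir294 and Mir295 stand at 13 regions in the right tail, and the miR-302 genes at 7, above the median of 4.

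A base in a region was rarer. Of the 7 members, 1 had a base in a region, Mir302b, against 192 of all 2202 microRNA genes (8.72%). The other members lay close to a region without overlap, with gaps of at most 1031 bp. Over all microRNA genes the median gap was 8058 bp and the quartiles were 1907 and 29588 bp, and 80.9% of the genes had a larger gap than Mir295, the member with the largest. At distances of 5, 10, 25, 50 and 100 kb, the miR-290 cluster had 2, 3, 6, 13 and 21 regions and the miR-302 cluster 1, 2, 4, 7 and 18. The medians over all microRNA genes at these distances were 0, 1, 2, 4 and 8.

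The comparison loci were 26 other microRNA loci and 3 pluripotency genes. Over the microRNA loci, the number of regions ranged from 1 to 18 with a median of 7.5. More than 13 regions were found at 4 of them, Mir143 with Mir145a (18), Mir9-3 (15), Mir375 (14) and Mir200c with Mir141 (14), and Mir124a-1 had 13. Several of these microRNAs are known from differentiated cells, among them smooth muscle for Mir143 and Mir145a, the nervous system for Mir9-3 and Mir124a-1, and pancreatic islets for Mir375. More regions than at the miR-302 cluster were found at 13 loci and as many at 3. Mir17 to Mir92-1, Mir106b with Mir93 and Mir25, and Mir106a to Mir363, some of whose members carry seeds related to AAGUGC, had 4, 9 and 8 regions. The 8 loci of let-7, a family that opposes pluripotency and whose processing LIN28 blocks, had 1 to 12 regions with a median of 7.0. Mir122 of hepatocytes had 2 regions, and the muscle genes Mir1a-1 and Mir1a-2 had 3 and 1.

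Of the pluripotency genes, Nanog had 16 regions, Pou5f1, which encodes OCT4, had 15 and Sox2 had 9. The miR-290 cluster thus stood between Pou5f1 and Sox2. By covered bases, its 7.06% lay above Nanog at 6.58%, Pou5f1 at 4.73% and Sox2 at 3.55%, and below Mir143 with Mir145a at 8.39%. In sum, the 16 regions around Nanog covered 7049 bp and the 13 of the cluster 7073 bp.

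**Figure D4:**
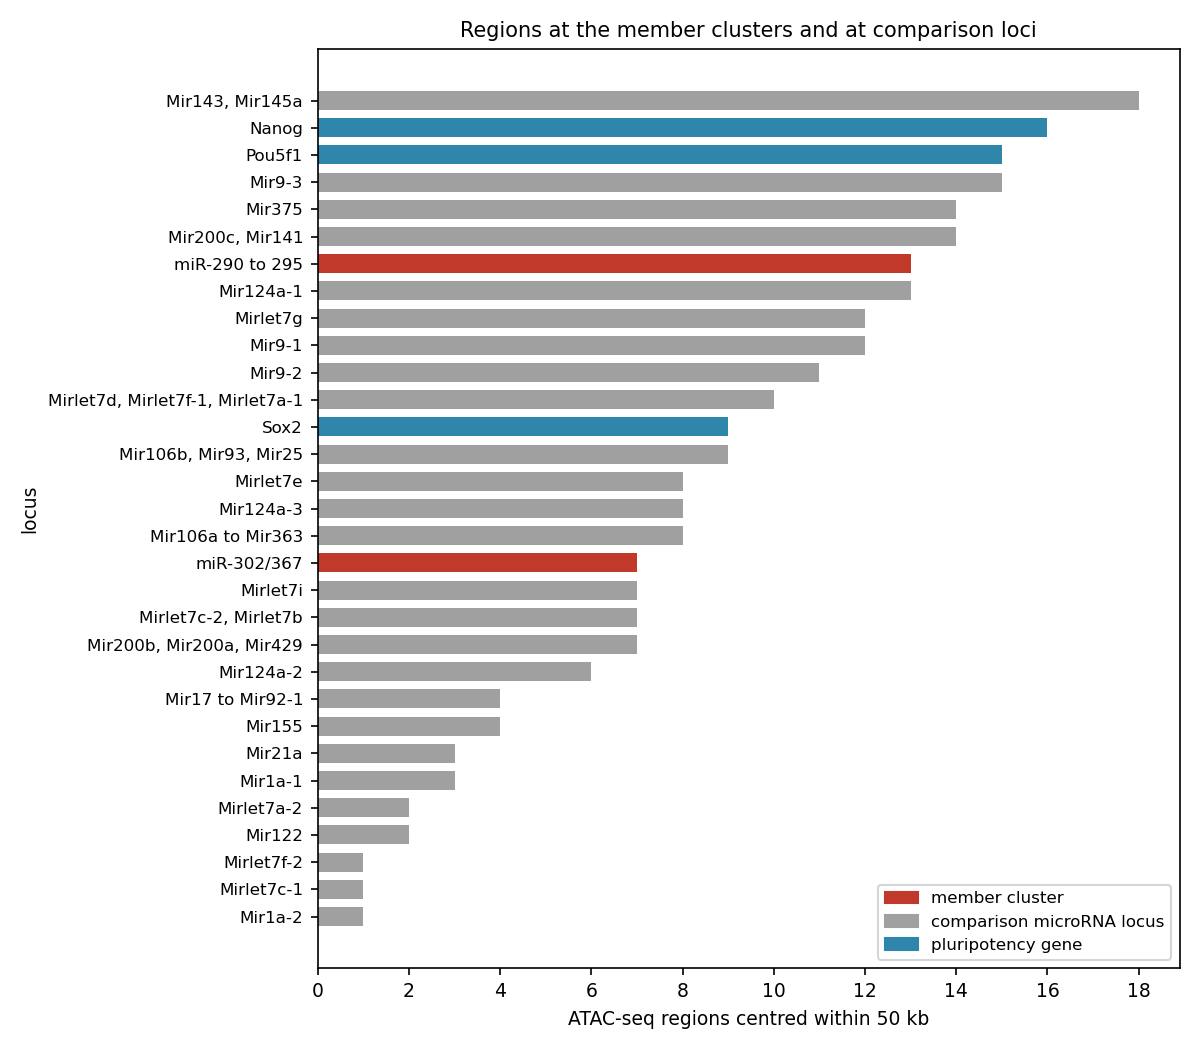
Number of ATAC-seq regions centred within 50 kb (x axis) at each locus (y axis), with bars for the member clusters in red, 26 comparison microRNA loci in grey and 3 pluripotency genes in blue. The miR-290 cluster has 13 regions, between Pou5f1 (15) and Sox2 (9), and the miR-302 cluster has 7, close to the median of 7.5 over the grey bars.

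Each region was assigned to the class at its centre, where a promoter ran from 1000 bp before to 100 bp after an annotated start and took precedence over exon, intron and intergenic sequence. A promoter was the class of 6 of the 20 regions (30.0%, 95% Wilson interval 14.5 to 51.9%), against 17004 of all regions (21%). Wilson intervals cover counting error only. By cluster, the counts were 2 of 13 regions at miR-290 (4.33 to 42.2%) and 4 of 7 at miR-302 (25.05 to 84.2%), and these intervals overlapped. Intergenic sequence held 10 of 13 regions at the first and 1 of 7 at the second, compared with 35.2% of all regions. The promoter regions of the miR-290 cluster rested on starts of hairpins, which are processing products and not starts of transcription. Without microRNA starts, an alternative chosen after seeing the data, 0 of 13 and 3 of 7 regions were in promoters, against 16887 of all regions (20.8%). With RefSeq transcript starts other than those of hairpin genes, chosen in the same way, the counts were 1 of 13 and 3 of 7, against 13984 of all regions (17.2%). With starts of protein-coding genes alone they were 0 of 13 and 2 of 7, against 14482 of all regions (17.8%).

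In width, the regions of both clusters were somewhat above the list. Their medians of 475 and 508 bp stood beside 355 bp over all regions, whose middle range ran from 222 to 564 bp between the quartiles. GC content had medians of 49.1% and 48.5%, against 51.9% over the list. The CpG ratio had medians of 0.233 and 0.338, compared with 0.300. At least 50% of the sequence was repeat-masked in 3 of 13 and in 1 of 7 regions, against 13.8% of all regions. The plot of width against GC content separates the promoter regions of Ank2 and Larp7, which were wide and GC-rich, from the region at Mir290a, which was the widest but had a GC content of 49.1%.

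**Figure D5:**
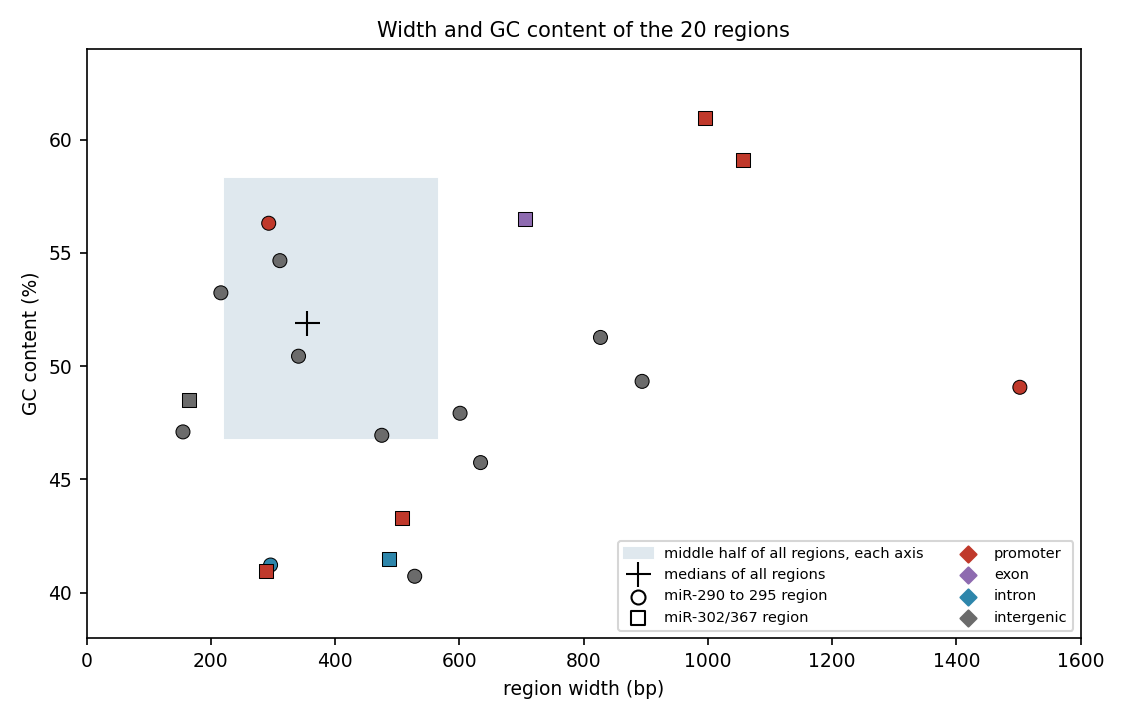
Width in bp (x axis) and GC content in percent (y axis) of the 20 regions, with circles for miR-290, squares for miR-302, colours for the class, a cross at the medians of all 81132 regions and shading between their quartiles. The Ank2 and Larp7 promoter regions lie at the upper right, and the 1502 bp region at Mir290a lies far right at 49.1%.

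Motifs of factors active in ES cells were searched by exact letters on both strands of each region. The OCT octamer was ATGCAAAT and the SOX motif CCATTGT or CCTTTGT. The composite was CATTGT or CTTTGT, any base and then the octamer, which it contains. Further motifs were KLF (GGGTGTG or GGGCGTG), ESRRB (TCAAGGTCA), STAT (TTCCNGGAA, where N is any base), TCF/LEF (CTTTGAT or CTTTGAA) and T-box (TCACACC). The last was the box TATAAA found in promoters, called the TATA box. A KLF and a T-box match share bases where GGGTGTG runs into GGTGTGA on the same strand, as in the Ank2 promoter region. A match is a description of the letters, and a motif not found says only that these letters are not in the region.

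OCT4 and SOX2 bind the octamer and the SOX motif, often side by side. The octamer was found in 0 of the 20 regions, against 2.66% of all regions. The SOX motif was in 2 (16.0% of all regions), at -11952 bp from Mir290a and at -233 bp from Mir302b. Either of them was thus in 2 of 20 (18.1% of all), and the composite in 0 of 20 (0.00986% of all, or 8 regions of the list). For 20 regions, 0 allows a share of up to 16.1% by the Wilson interval, so that the octamer's background share lies within it. With 1 mismatch allowed, the octamer was in 2 of 13 regions at miR-290 and 4 of 7 at miR-302, against 25.9% of all regions. The Wilson intervals for these counts are 4.33 to 42.2% and 25.05 to 84.2%, and the share in the list lay within both. This looser match was not counted over equal lengths.

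The other motifs were counted in the same way. KLF factors, of which KLF4 lies downstream of LIF, had sites in 2 of 13 and 3 of 7 regions, in sum 5 of 20 (23.5% of all regions). STAT3 transmits the LIF signal, and the STAT motif stood in 2 of 20 (1.89% of all), both upstream of Mir290a. ESRRB, an orphan nuclear receptor, had its motif in 1 of 20 (2.24% of all). TCF/LEF factors are the targets of the pathway that CHIR99021 activates, and their motif was in 3 of 20 (13.7% of all). A T-box motif was in 4 of 20 (6.63% of all) and the TATA box in 4 of 20 (13.3% of all). For the CTCF core the count was 0 of 20 (0.791% of all). The Wilson intervals were 11.2 to 46.9% for KLF, 2.79 to 30.1% for STAT, 0.888 to 23.6% for ESRRB, 5.24 to 36.0% for TCF/LEF and 8.07 to 41.6% for both T-box and TATA box. The share in the list lay below the interval for STAT and T-box and within it for the other motifs of this paragraph, and the members' regions had larger median widths than the list.

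To set equal lengths side by side, the motifs were also counted in the 200 bp around each centre. In this length, SOX was found in 2 of 20 regions (8.99% of all), KLF in 4 (13.4%), STAT in 2 (0.908%), TCF/LEF in 1 (7.14%), T-box in 2 (3.46%) and the TATA box in 3 (6.67%). The octamer, the composite and ESRRB were in 0 of 20, against 1.54%, 0.00616% and 1.34% of all regions. The Wilson interval for 2 of 20 is 2.79 to 30.1%. At this length the share in the list thus lay within the interval for T-box and SOX, and below it for STAT. The intervals were not adjusted for the number of motifs. With counts of 0 to 4 among 20 regions, none of these shares is precise.

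A pair of the TCF/LEF matches fell on mature microRNA sequence. In the regions at the hairpins, the letters ATCAAAG at chr7:3218933-3218939 and chr7:3219495-3219501 coincide with bases 2 to 8 of miR-291a-5p and miR-291b-5p, whose seed AUCAAAG is printed above. These matches are therefore part of the hairpin sequence itself.

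The genes through which these microRNAs are made and act were described by the same promoter rule. Of 12 processing and effector genes, 11 had a region centred in a promoter, against 12649 of 21938 protein-coding genes (57.7%). They include Drosha and Dgcr8, which cut the primary transcript, Xpo5, which exports the hairpin, Dicer1 with its partners Tarbp2 and Prkra, the Argonautes Ago1, Ago2 and Ago3, and the helicases Ddx5 and Ddx17. The widest such region was at Ddx5 with 1959 bp, and those of Drosha and Dgcr8 had 918 and 868 bp. Ago4 had none.

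Control of let-7 was represented by 6 genes, of which 5 had a promoter region, beside the same 57.7% of all protein-coding genes. Lin28a and Lin28b, which bind the let-7 precursor, had regions of 811 and 1112 bp, Tut4 and Tut7, which add uridines to it, had 768 and 982 bp, and Dis3l2, which degrades the tailed precursor, had 745 bp. Trim71, a target of let-7, had none in a promoter and 16 within 50 kb.

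Among 11 known targets of the AAGUGC seed family, 9 had a promoter region, again beside 57.7%. These were the cell cycle inhibitors Cdkn1a (362 bp) and Rbl2 (164 bp), the Hippo kinase Lats2 (896 bp, the widest of 3), the Nodal inhibitor Lefty1 (461 bp), the receptor Tgfbr2 (1596 bp), the GTPase Rhoc (798 bp), the caspase gene Casp2 (929 bp), Ei24 (868 bp, the wider of 2) and the methyl-CpG binding gene Mbd2 (588 bp). Every annotated start of a gene counted, inner ones too. The regions given for Cdkn1a, Lats2, Lefty1 and Rhoc lay inside the gene, past its outermost start, and counted through an inner start. Lefty2, another Nodal inhibitor, and the Wnt inhibitor Dkk1 had none, with 15 and 4 regions within 50 kb. Over the 3 lists, 25 of 29 genes (86.2%, 69.4 to 94.5%) had a promoter region, against 57.7% of all protein-coding genes. The lists were chosen with earlier results of these data known, so this interval is no test of a difference. The median number of regions within 50 kb was 7.0, 10.5 and 13 in the 3 lists and 7.0 over all protein-coding genes. This window held the gene body and 50 kb on both sides, so it grew with gene length, for which no correction was made. When a promoter was widened to 2 kb on both sides or any base of a region was accepted, Trim71, Lefty2 and Dkk1 gained a region and Ago4 did not, while the share of all protein-coding genes rose to 70.4% and 66.5%. The list does not say how strongly any of these genes was expressed.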

How the data were processed

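ATAC-seq was done on 12 libraries of sorted SBROS cells. Per the submitters' processing notes and the study's methods, the authors aligned reads to mm10 with STAR (2.5.3a), kept unique alignments, removed duplicates with Picard, called peaks per library on whole fragments with MACS2 (2.1.1.20160309), merged the peaks with BEDOPS and dropped those overlapping peaks of a ChIP-seq input. No shift for the Tn5 cut is named. The deposited list has 3 columns, chromosome, start and end, with no score, count or coverage. The list gives no depth per library, and the 4 ChIP-seq samples were not analysed here.

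Regions were placed on GENCODE M21 and RefSeq (GRCm38.p6) with Python (3.11.15), numpy (2.4.6) and scipy (1.17.1), and plotted with matplotlib (3.10.9). Scripts were tested on simulated data. No test between groups was possible. Named genes were all members, the other hairpin genes of the clusters, protein-coding genes overlapping the windows, the gene with the closest start to each region, and all genes of the lists. AU018091, just outside a window, and the RefSeq noncoding RNAs were added after their values were seen. The next region outside on the downstream side of the miR-290 cluster is not reported here. The members and lists were chosen with earlier results of these data known. Alternatives were other windows, joined or filtered regions, other promoters and other motif searches.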

Additional observations from a re-analysis of the deposited data

How the results depend on the processing

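Of 52 alternatives, 23 stayed within the limits set (1.5 times for counts, the 95% interval for shares) and 29 did not. Windows of 25 and 100 kb changed the counts from 13 to 6 and 21 at miR-290 and from 7 to 4 and 18 at miR-302. Covered bases changed from 7.06% to 8.79% and 5.15%, and from 4.18% to 3.99% and 4.37%, or 4.02% without regions under 200 bp. Over all microRNA genes, the median changed from 4 to 2 and 8 and the share with a region from 83.6% to 71.9% and 94.8%, or 87.8% for joined loci. These follow from the window, the joining or the width filter itself. Promoter shares at miR-290 changed from 15.4% to 0% with protein-coding starts and to 0% without microRNA starts. At miR-302 they changed from 57.1% to 28.6% with protein-coding starts and to 71.4% at 2 kb, within the interval. For all regions they changed from 21% to 34.0% (2 kb), 17.8% (protein-coding starts) and 17.2% (RefSeq starts without hairpins). The last and the one without microRNA starts were chosen after seeing the data. An octamer or SOX motif, with 1 mismatch in the octamer, was in 71.4% in place of 14.3% of miR-302 regions, 23.1% in place of 7.69% of miR-290 regions and 36.4% in place of 18.1% of all regions. For all regions, 100 bp more on both sides gave 24.5% and the central 200 bp 10.3%. Promoters of 2 kb, or any overlapping base, gave 100% in place of 83.3% for let-7 control genes, 100% in place of 81.8% for seed targets, and 70.4% and 66.5% in place of 57.7% for all genes. Beyond these constructions the cause was not tested. No paired analysis was possible because the merged list has no values per library, and for the same reason leaving out replicates was not possible. The list gives no depth per region, which limits all counts, since a region absent from it may be closed or undetected.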
